A study of Mus musculus with 48 samples.

Results

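The CXCL chemokines described here were the 9 genes Cxcl1, Cxcl2, Cxcl3, Cxcl9, Cxcl10, Cxcl12, Cxcl13, Cxcl14 and Cxcl16, chosen by name from the 34932 mouse genes that the deposited transcripts represent. RNA was sequenced from 48 libraries of sorted cells, 4 from each of 12 groups. The groups crossed genotype (WT or Yap-cKO), tissue and sorted population. Wild-type (WT) and Yap-cKO C57BL/6J mice carried subcutaneous B16F10 tumors, a transplantable mouse melanoma line, and were young adults. CD4+ cells, CD8+ cells and CD45+ cells negative for both CD4 and CD8 were sorted from the tumor (tumor-infiltrating leukocytes, TILs) and from the tumor-draining inguinal lymph node (TDLN). In Yap-cKO mice, loxP-flanked Yap and a loxP-stop EYFP reporter were recombined by Cre under the CD4 promoter, which acts in the T lineage. Controls were littermates.

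CXC chemokines are small secreted proteins that bind G protein-coupled receptors on leukocytes and direct their migration. Cxcl1, Cxcl2 and Cxcl3 bind Cxcr2 and attract neutrophils, and they are classical targets of NF-κB. Cxcl9 and Cxcl10 are induced by interferons and bind Cxcr3 on activated T and NK cells. Cxcl12 is made by stromal cells and binds Cxcr4 and the scavenging receptor Ackr3, Cxcl13 is made by follicular stroma and attracts Cxcr5-bearing B cells, and Cxcl14 is a homeostatic chemokine of epithelia and stroma. Cxcl16 is made as a membrane-anchored ligand of Cxcr6, is cleaved by Adam10, and is made by macrophages and dendritic cells.

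In GRCm38, 6 of the 9 genes lay on chromosome 5. The neutrophil-attracting genes were close together on the plus strand, Cxcl3 at chr5:90786103-90789600, Cxcl1 at chr5:90891241-90893115 and Cxcl2 at chr5:90903871-90905938. The interferon-induced genes were neighbors on the minus strand, Cxcl9 at chr5:92321347-92328079 and Cxcl10 at chr5:92346638-92348889. Cxcl13 was at chr5:95956951-95961068 on the plus strand. The others were dispersed, with Cxcl12 at chr6:117168535-117181367 on the plus strand, Cxcl14 at chr13:56288643-56296551 on the minus strand and Cxcl16 at chr11:70453983-70459984 on the minus strand.

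RefSeq promoters (GRCm38.p6) were matched for 8 of the 9 members, without Cxcl16, and the 250 bases before each start were searched on both strands. The NF-κB consensus was present in 3.9% of all 32851 promoters, and in 4 members it lay within the stretches printed here. These 4 are shown because Cxcl1, Cxcl2 and Cxcl3 carried the same 11 letters, and because Cxcl10 carried both an NF-κB match and an interferon motif. Capitals mark the NF-κB matches and, in Cxcl10, also the core of the interferon-stimulated response element, which was searched as 2 copies of GAAA with any 2 bases between them. The stretches run from 110 bases to 1 base before the start for Cxcl1 (chr5:90891135-90891244, plus strand), Cxcl2 (chr5:90903789-90903898, plus strand) and Cxcl3 (chr5:90785991-90786100, plus strand), and from 220 to 91 bases before the start for Cxcl10 (chr5:92348980-92349109, minus strand).
Cxcl1: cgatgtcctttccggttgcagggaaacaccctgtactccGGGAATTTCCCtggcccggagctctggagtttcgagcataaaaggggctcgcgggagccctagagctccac
Cxcl2: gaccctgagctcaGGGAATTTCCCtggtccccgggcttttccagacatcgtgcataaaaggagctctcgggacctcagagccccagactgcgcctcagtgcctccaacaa
Cxcl3: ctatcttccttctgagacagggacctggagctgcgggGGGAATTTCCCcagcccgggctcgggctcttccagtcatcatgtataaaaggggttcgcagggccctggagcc
Cxcl10: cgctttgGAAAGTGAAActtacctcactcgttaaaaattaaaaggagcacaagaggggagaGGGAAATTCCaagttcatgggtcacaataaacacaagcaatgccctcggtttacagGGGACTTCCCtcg

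In Cxcl1, Cxcl2 and Cxcl3 the 11 letters matched the consensus on both strands, in overlapping positions, at 71 to 61, 97 to 87 and 73 to 63 bases before the start. Cxcl10 held 2 NF-κB matches, at 159 to 150 and 103 to 94 bases, and its interferon-stimulated response element core was at 213 to 204 bases. That core was found in 2.98% of promoters, and Cxcl14 held it too, at 172 to 163 bases. The interferon-gamma-activated site TTCNNNGAA, found in 7.02% of promoters, occurred in Cxcl14 at 191 to 183 bases. TATAAA, found in 12.4%, occurred in Cxcl3, Cxcl9 and Cxcl13. The TEAD motif CATTCC, found in 12.6%, occurred in Cxcl3 and Cxcl13, and the Cxcl12 window held none of these letters.

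**Figure D1:**
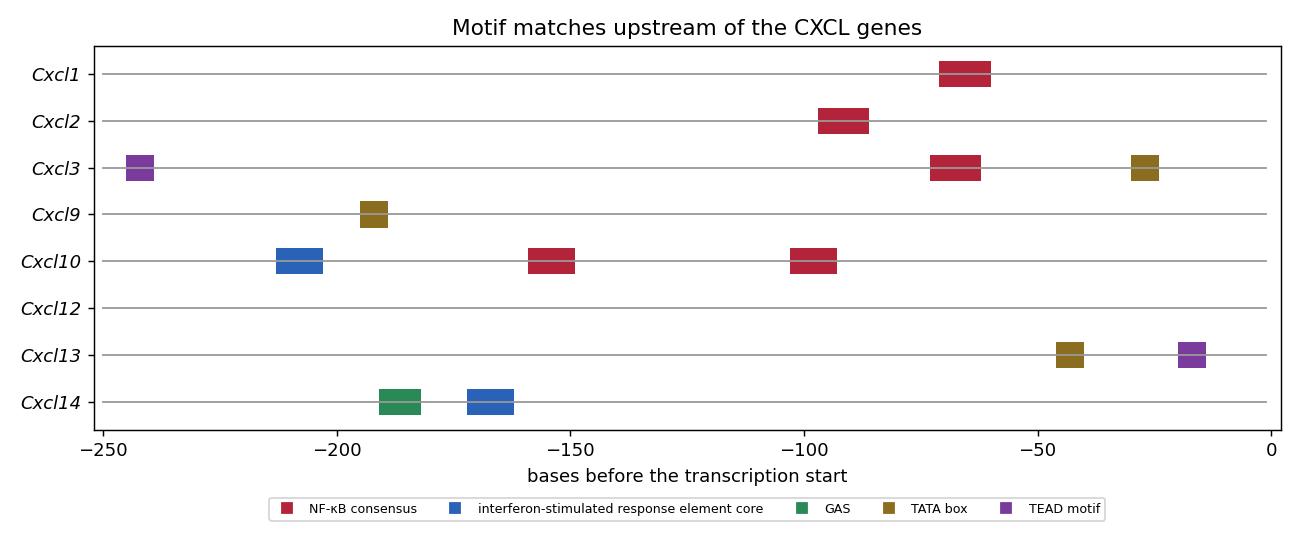
Positions of motif matches (colored boxes) in the 250 bases before the transcription start of 8 members, with the distance from the start in bases on the horizontal axis. The NF-κB matches of Cxcl1, Cxcl2 and Cxcl3 lie between 97 and 61 bases before the start, and the Cxcl12 line is empty.

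Libraries held 12656510 to 24213892 counts on genes (median 17870231), so that 3 counts corresponded to 0.133 to 0.209 CPM, the counts of a gene scaled to the library total, counting error only. Yap1 itself was between 14.8 and 27.3 CPM in the WT CD4+ TIL libraries and between 13.0 and 27.1 CPM in the WT CD8+ TIL libraries, against 1.63 to 5.59 and 2.37 to 6.37 CPM in Yap-cKO. In CD45+ TILs Yap1 was at 2.74 to 5.32 CPM in WT and, without overlap, at 1.52 to 2.03 CPM in Yap-cKO. WT lay above Yap-cKO without overlap for 12.7%, 13.5% and 7.02% of all genes in CD4+, CD8+ and CD45+ TILs. In the 24 TDLN libraries Yap1 was at 1.13 to 4.53 CPM in both genotypes. These Yap1 counts sum the whole gene and do not check the deleted part, and how far other cells account for them was not tested. Melanoma genes (10 listed, all detected) summed to a mean of 13360 CPM in WT CD4+ TILs, 11980 CPM in WT CD8+ TILs and 1913 CPM in WT CD45+ TILs, against 1323, 1316 and 632 CPM in Yap-cKO. Fibroblast and pericyte genes (11 listed) summed to 547, 417 and 65.2 CPM in these WT groups and to 33.8, 15.6 and 32.5 CPM in Yap-cKO. The T-lineage genes (15 listed) summed to 5563 CPM in WT CD4+ TILs and 4649 CPM in WT CD8+ TILs, against 9861 and 8441 CPM in Yap-cKO, so that sorted T-cell libraries from tumors held transcripts of other cells in amounts that differed with genotype. Y-linked genes (4 listed) were high in the WT libraries of replicates 1 to 3 and low in the other libraries, so that sex and genotype were partly confounded.

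Levels between genes are compared per transcript length, in TPM, which divides each count by transcript length before scaling the library. In CD45+ TILs, Cxcl2 was the most abundant member, at a mean of 1070 TPM in WT and 1474 TPM in Yap-cKO. Cxcl3, Cxcl1, Cxcl10 and Cxcl16 followed at 186, 180, 172 and 136 TPM in WT and at 140, 77.5, 140 and 152 TPM in Yap-cKO. Cxcl9 was at 42.1 and 12.8 TPM, Cxcl14 at 1.83 and 0.686 TPM, Cxcl12 at 0.376 and 0.115 TPM, and Cxcl13 at 0.083 and 0.0155 TPM. Among the 12 groups, 7 members had their highest mean in CD45+ TILs, Cxcl12 in WT CD8+ TILs, and Cxcl13 in Yap-cKO CD45+ TDLNs. Few steps in these orders were clear of the replicate spread. In CPM, the ranges of neighboring groups overlapped for 9 to 11 of the 11 neighboring pairs, according to the member. Cxcl2, Cxcl9, Cxcl14 and Cxcl16 dropped from CD45+ TILs to all other groups without overlap. The share of all genes that did so was not counted. In a looser pattern, CD45+ TIL libraries lay above T-cell TIL libraries without overlap for 14.9% of all genes in WT and 16.6% in Yap-cKO.

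**Figure D2:**
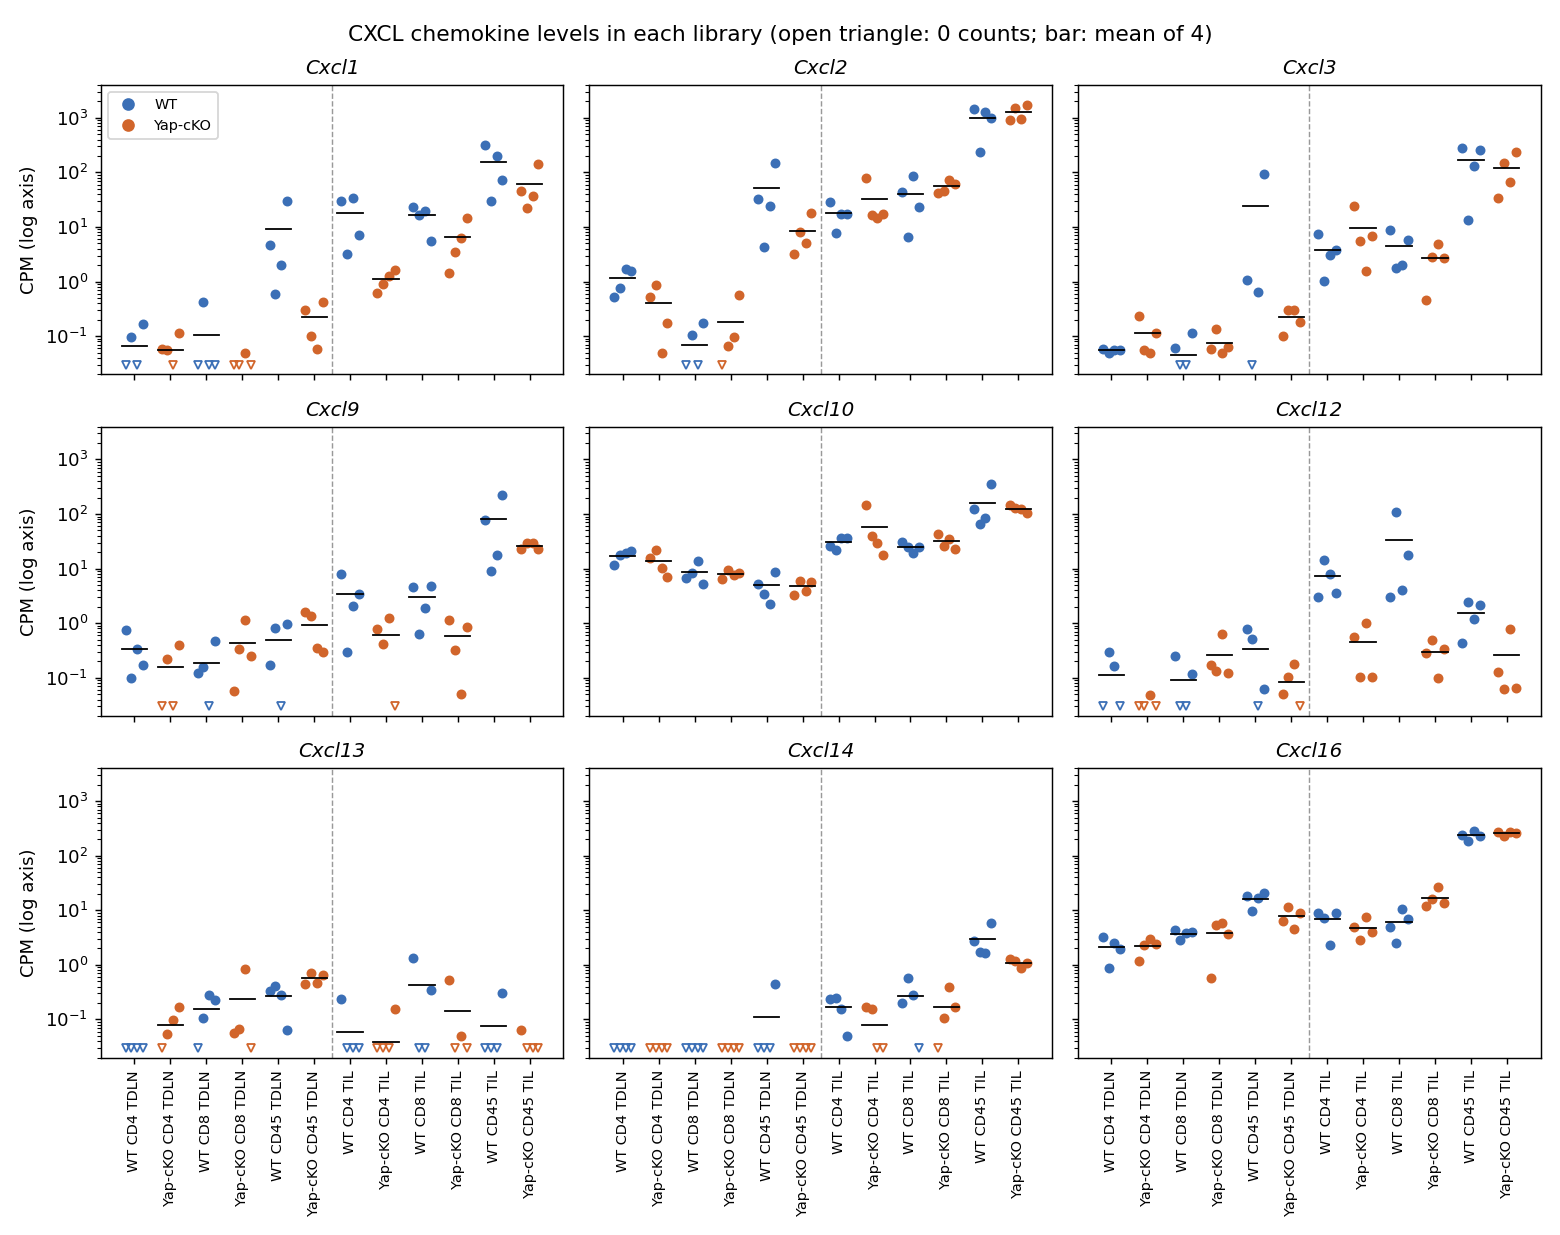
CPM of each member in each of the 48 libraries on a log axis, by group, with TDLN groups to the left of the dashed line and TIL groups to the right. Points are libraries, open triangles are libraries at 0 counts, and bars are means of 4. CD45+ TILs stand highest for 7 members, while Cxcl12 stands highest in WT CD8+ and WT CD4+ TILs.

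Cxcl2, the neutrophil attractant that myeloid cells release early in inflammation, was at 1426, 241, 1265 and 976 CPM in the 4 WT CD45+ TIL libraries and at 914, 1497, 969 and 1714 CPM in Yap-cKO. The genotypes overlapped, and WT replicate 2 was the lowest of the 8. In that same library the neutrophil genes (8 listed) summed to 525.5 CPM, against a mean of 1513 CPM over the 4. The lowest neutrophil sum in Yap-cKO CD45+ TILs was lower still, at 495 CPM, while no library of that group held less than 914 CPM of Cxcl2. T-cell TIL libraries held far less Cxcl2. WT CD8+ TILs were at 44.5, 6.62, 84.5 and 23.3 CPM and Yap-cKO CD8+ TILs at 41.8, 46.3, 72.1 and 62.1 CPM. WT CD4+ TILs were at 29.2, 7.61, 17.0 and 17.1 CPM. Yap-cKO CD4+ TILs were at 80.1, 16.6, 14.5 and 17.1 CPM, so that replicate 1 alone lay above WT. In the lymph node, WT CD45+ cells held 32.2, 4.38, 24.7 and 146.9 CPM, and no T-cell library there exceeded 1.68 CPM.

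Cxcl1, which shares the Cxcr2 receptor, was at 29.7, 3.14, 33.7 and 7.05 CPM in WT CD4+ TILs. Yap-cKO CD4+ TILs were at 0.619, 0.917, 1.26 and 1.62 CPM, all below the lowest WT library, as for 12.7% of all genes. WT CD8+ TILs held 23.7, 16.9, 19.7 and 5.54 CPM and Yap-cKO CD8+ TILs 1.45, 3.52, 6.32 and 14.4 CPM, with overlap. CD45+ TILs were at 318, 29.4, 202.9 and 71.7 CPM in WT and at 46.4, 22.3, 36.8 and 141 CPM in Yap-cKO, also overlapping. In the node, WT CD45+ cells were at 4.60, 0.599, 2.05 and 29.3 CPM. All 4 Yap-cKO CD45+ TDLN libraries lay lower, at 0.300, 0.102, 0.0593 and 0.421 CPM, as for 0.811% of all genes. T-cell TDLN libraries did not exceed 0.425 CPM of Cxcl1.

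Cxcl3, another Cxcr2 ligand, reached 277, 13.4, 130 and 258 CPM in WT CD45+ TILs, against 33.4, 146, 65.4 and 240 CPM in Yap-cKO. In WT CD45+ TDLNs it was at 1.07, 0, 0.652 and 94.9 CPM, so that 1 library held nearly all of its counts in that group. The same library was the highest of its group for Cxcl1 and Cxcl2, and its macrophage and monocyte genes (10 listed) summed to 914 CPM, against 112.5 to 261 CPM in the other 3. Cxcl1, Cxcl2 and Cxcl3 are close paralogs, and the split of reads between them rested on the authors' transcript quantification.

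Cxcl10, a Cxcr3 ligand that both interferon classes induce, was the only member with at least 10 counts in every library besides Cxcl16. In TDLNs, WT CD4+ cells held 11.7, 17.6, 19.1 and 21.1 CPM and Yap-cKO CD4+ cells 15.5, 21.7, 10.1 and 6.95 CPM. CD8+ TDLN libraries held 6.79, 8.24, 13.9 and 5.27 CPM in WT, against 6.38, 9.58, 7.75 and 8.35 CPM in Yap-cKO. CD45+ TDLN libraries were lower on average, at 5.32, 3.37, 2.24 and 8.76 CPM in WT, against 3.30, 5.93, 3.97 and 5.66 CPM in Yap-cKO. In tumors the CD45+ cells held the most. CD45+ TILs were at 121, 65.9, 85.3 and 355 CPM in WT and at 147, 130, 121 and 104 CPM in Yap-cKO. CD8+ TILs were at 31.1, 24.5, 19.1 and 25.0 CPM in WT and at 43.9, 26.1, 34.4 and 22.9 CPM in Yap-cKO. CD4+ TILs were at 26.2, 21.7, 35.9 and 36.9 CPM in WT and at 147.5, 39.2, 29.3 and 18.1 CPM in Yap-cKO, where replicate 1 stood apart for Cxcl10 as it did for Cxcl2.

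Cxcl9, which is induced mainly by interferon gamma, was concentrated in CD45+ TILs, at 76.9, 8.98, 18.1 and 225 CPM in WT and at 22.9, 29.4, 29.0 and 22.7 CPM in Yap-cKO. The WT libraries spread on both sides of the Yap-cKO values. T-cell TIL libraries held at most 7.91 CPM, and no TDLN library exceeded 1.60 CPM. Cxcl11, the third Cxcr3 ligand, ranged from 1.15 to 13.1 CPM in WT CD45+ TILs and from 1.56 to 3.90 CPM in Yap-cKO, with overlap.

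Cxcl12, the stromal ligand of Cxcr4, had a distribution unlike the others. In WT CD8+ TILs it was at 3.02, 110.8, 3.98 and 17.5 CPM and in WT CD4+ TILs at 2.96, 14.5, 8.07 and 3.53 CPM. Yap-cKO CD8+ TILs were at 0.289, 0.487, 0.0996 and 0.335 CPM and Yap-cKO CD4+ TILs at 0.563, 0.102, 1.02 and 0.102 CPM. Every WT library lay above every Yap-cKO library in both T-cell populations, a pattern shown by 12.7% of all genes in the CD4+ comparison and by 13.5% in the CD8+ comparison. CD45+ TILs were at 0.433, 2.40, 1.21 and 2.20 CPM in WT and at 0.126, 0.0619, 0.780 and 0.0639 CPM in Yap-cKO. No TDLN library exceeded 0.785 CPM.

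The 2 remaining homeostatic members were scarce. Cxcl13 did not exceed 1.34 CPM in any library, and it passed the count filter in none of the comparisons. Its highest group mean was in Yap-cKO CD45+ TDLNs, with 9, 14, 8 and 11 counts (0.450, 0.715, 0.474 and 0.662 CPM), while its receptor gene Cxcr5 averaged 928 CPM there. Cxcl14 was at 2.79, 1.73, 1.67 and 5.81 CPM in WT CD45+ TILs and at 1.26, 1.18, 0.884 and 1.09 CPM in Yap-cKO. It did not exceed 0.577 CPM in T-cell TILs, and in TDLNs it had counts in 1 of 24 libraries.

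Cxcl16, the Cxcr6 ligand, was the steadiest member in CD45+ TILs, at 244, 183, 288 and 232 CPM in WT and at 272, 227, 269 and 261 CPM in Yap-cKO. In CD8+ TILs it was at 4.90, 2.49, 10.5 and 6.92 CPM in WT and at 11.9, 16.1, 27.2 and 13.4 CPM in Yap-cKO. The groups did not overlap, as for 7.06% of all genes in that direction. In CD4+ TILs the ranges overlapped, at 8.89, 7.07, 2.36 and 9.02 CPM in WT and at 4.84, 2.85, 7.51 and 3.96 CPM in Yap-cKO. CD45+ TDLNs held 18.3, 9.73, 16.8 and 20.6 CPM in WT, against 6.25, 11.5, 4.57 and 9.03 CPM in Yap-cKO.

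The comparison of tumor with lymph node asked where in the body each population carried these transcripts. The test was the quasi-likelihood F test of edgeR. A gene was called at a Benjamini-Hochberg adjusted p under 0.05 over all tested genes with an absolute log2 fold change above 1. The fitted difference was positive for every tested member in all 6 comparisons. In CD45+ cells, 6 of 8 tested members were called higher in WT tumors and 7 of 7 in Yap-cKO tumors, where 21.9% and 21.8% of all tested genes were. In CD4+ cells the counts were 6 of 7 in WT (22.9% of all genes) and 4 of 5 in Yap-cKO (12.4%). In CD8+ cells they were 6 of 7 (22.5%) and 4 of 4 (10.9%). These counts are not evidence about the list, because most members reached the minimum of 10 counts in 4 libraries only through the tumor, which left a higher level there as the only call possible. Cxcl10 and Cxcl16 alone met it in all 12 groups.

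For those 2 genes the test was open in both directions. Cxcl16 in CD45+ cells was 3.81 ± 0.30 log2 units (SE) higher in WT tumors (adjusted p = 2.34e-05) and 4.98 ± 0.29 log2 units higher in Yap-cKO tumors (adjusted p = 2.19e-07). Cxcl10 in CD45+ cells was 4.94 ± 0.66 log2 units higher in WT tumors (adjusted p = 2.06e-04) and 4.68 ± 0.25 higher in Yap-cKO tumors (adjusted p = 1.12e-07). In T cells both differences were smaller. Cxcl10 was 1.57 ± 0.38 log2 units higher in WT CD8+ TILs (adjusted p = 0.00576) and 2.04 ± 0.27 higher in Yap-cKO CD8+ TILs (adjusted p = 5.71e-04). In WT CD4+ TILs its difference of 0.81 ± 0.28 (adjusted p = 0.0338) stayed below the fold threshold, and its TIL libraries lay above its TDLN libraries without overlap, as for 25.4% of all genes. In Yap-cKO CD4+ TILs it was 2.13 ± 0.64 higher (adjusted p = 0.0377), but the call was lost without TIL replicate 1 (1.10, adjusted p = 0.108) and without each of the 4 TDLN replicates (adjusted p = 0.0511 to 0.110). Cxcl16 was 1.68 ± 0.51 higher in WT CD4+ TILs (adjusted p = 0.0171) and 2.19 ± 0.59 higher in Yap-cKO CD8+ TILs (adjusted p = 0.0236), where the call was lost without TIL replicate 2, TIL replicate 3 or TDLN replicate 4 (adjusted p = 0.0521, 0.0652 and 0.0575). In the other T-cell comparisons it was not called, with differences of 0.77 ± 0.46 in WT CD8+ cells (adjusted p = 0.202) and 1.13 ± 0.43 in Yap-cKO CD4+ cells (adjusted p = 0.0916).

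Of the neutrophil-attracting genes, Cxcl2 reached 10 counts in all libraries of both tissues in CD45+ cells of both genotypes, and Cxcl1 did so in WT CD45+ cells. Cxcl2 was 4.17 ± 0.96 log2 units higher in WT CD45+ TILs than in TDLNs (adjusted p = 0.00459) and 7.17 ± 0.58 higher in Yap-cKO (adjusted p = 2.06e-06). Cxcl1 was 4.03 ± 1.13 higher in WT CD45+ TILs (adjusted p = 0.0128). Cxcl3, which reached 10 counts in 3 of the 4 WT CD45+ TDLN libraries, stood at 2.74 ± 1.64 (adjusted p = 0.187), and without TDLN replicate 4, which held most of its counts there, at 8.19 (adjusted p = 5.09e-04). In T cells of both genotypes and in Yap-cKO CD45+ cells, Cxcl1 and Cxcl3 reached 10 counts in 0 TDLN libraries, so that their levels above are the description of that difference.

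Among the remaining members, Cxcl9 reached 10 counts in 4 of 4 TIL and 2 of 4 TDLN libraries of CD45+ cells in each genotype, and it was 7.36 ± 1.24 log2 units higher in WT tumors and 4.75 ± 0.48 higher in Yap-cKO tumors. Cxcl12 reached 10 counts in all WT T-cell TIL libraries and in 0 WT T-cell TDLN libraries, so that a higher level in the tumor was the only call possible there. In WT CD45+ cells, where 3 TIL and 2 TDLN libraries reached 10 counts, it was at 2.14 ± 0.86 (adjusted p = 0.0588), and it was called without TDLN replicate 1 (2.92, adjusted p = 0.0297) or TIL replicate 1 (2.43, adjusted p = 0.0465). In Yap-cKO it passed the filter in no tissue comparison. Cxcl14 in Yap-cKO CD45+ TILs was at least 6.66-fold higher than in TDLNs, where all 4 libraries were at 0, with 3 counts per library taken as the floor. Fewer cells of a type and less RNA per cell cannot be told apart in these sorted bulk libraries.

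CD45+ CD4- CD8- cells were next compared with the mean of CD4+ and CD8+ cells of the same tissue and genotype. In WT TILs, 7 of 8 tested members were higher in CD45+ cells (15.7% of all genes were higher) and 1, Cxcl12, was lower (18.6% of all genes were lower). In Yap-cKO TILs 7 of 7 were higher (17% of all genes). Cxcl14 reached 10 counts in at most 1 T-cell library of a genotype, and it could only be called higher in CD45+ cells. Cxcl2 and Cxcl16 had differences of 5.27 ± 0.60 and 5.25 ± 0.38 log2 units in WT (adjusted p = 9.74e-06 and 1.22e-07) and of 4.89 ± 0.44 and 4.82 ± 0.26 in Yap-cKO (adjusted p = 1.17e-06 and 1.35e-08). The difference was smaller for Cxcl10, at 2.59 ± 0.37 in WT (adjusted p = 7.09e-05) and 1.52 ± 0.42 in Yap-cKO (adjusted p = 0.0113). Cxcl12 was 3.20 ± 0.96 log2 units lower in WT CD45+ TILs than in WT T-cell TILs (adjusted p = 0.0144).

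In TDLNs the populations split differently. Cxcl16 was higher in CD45+ cells by 2.55 ± 0.31 log2 units in WT (adjusted p = 2.08e-05, 14% of all genes were higher) and by 1.42 ± 0.45 in Yap-cKO (adjusted p = 0.0251, 12.2% of all genes). Cxcl1 in WT and Cxcl2 in both genotypes were called higher too, but at most 3 of the 8 T-cell libraries of a genotype reached 10 counts, so that these genes were tested through the CD45+ cells and only a higher call was possible. Cxcl10 was lower in CD45+ cells in both genotypes (11.2% and 12.1% of all genes were lower), by -1.29 ± 0.40 log2 units in WT (adjusted p = 0.0230) and by -1.15 ± 0.32 in Yap-cKO (adjusted p = 0.0119). Against CD4+ cells alone the values were -1.81 (adjusted p = 0.00759) and -1.53 (adjusted p = 0.00979). Against CD8+ cells alone they were -0.75 (adjusted p = 0.327) and -0.78 (adjusted p = 0.0885). The WT call for Cxcl10 was lost without CD45+ replicate 2 (-1.15, adjusted p = 0.0633) or replicate 3 (-1.05, adjusted p = 0.0614), and the Yap-cKO difference was under the fold threshold without CD4+ replicate 2 (adjusted p = 0.0233). The Yap-cKO call for Cxcl16 was lost without CD45+ replicate 2 (1.17, adjusted p = 0.107) or replicate 4 (1.34, adjusted p = 0.0704).

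**Figure D3:**
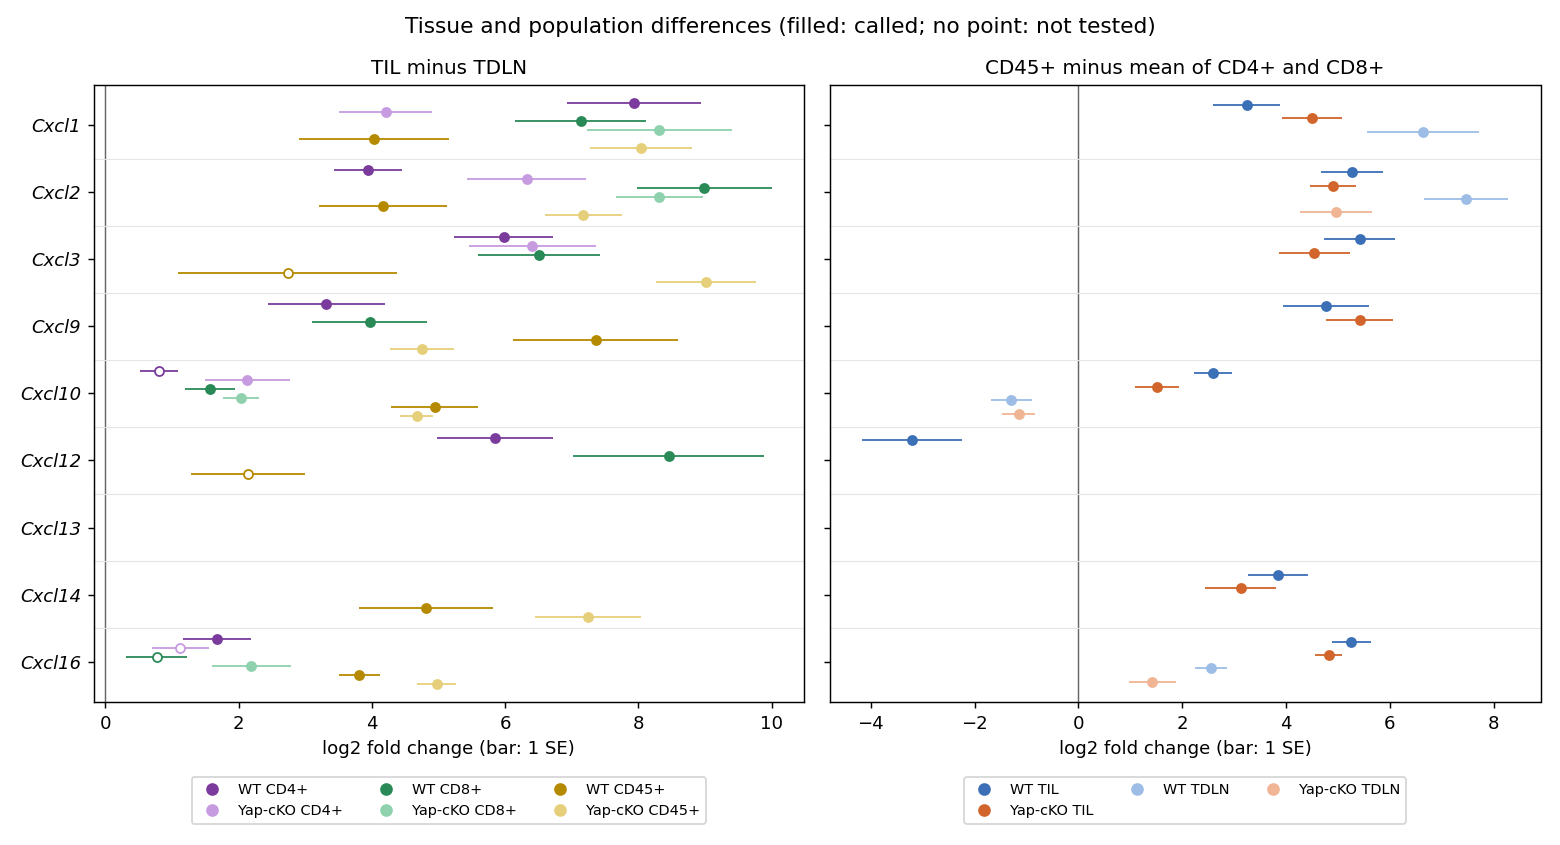
Log2 fold change with 1 SE of each tested member for TILs minus TDLNs (left, 6 comparisons) and for CD45+ cells minus the mean of CD4+ and CD8+ cells (right, 4 comparisons), with called members filled. All differences on the left lie above 0, and on the right Cxcl12 in WT TILs and Cxcl10 in TDLNs lie below 0.

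The share of the CD45+ level that T-cell libraries held differed between members. In WT CD4+ and CD8+ TILs, mean Cxcl2 was 1.81% and 4.07% of its mean in WT CD45+ TILs, Cxcl3 2.28% and 2.68%, and Cxcl16 2.89% and 2.62%. The neutrophil list stood at 1.85% and 3.18% and the macrophage and monocyte list at 5.02% and 9.26% of their CD45+ sums. Cxcl1 stood at 11.8% and 10.6% and Cxcl10 at 19.2% and 15.9%. Other lists ranged widely, with B-cell genes at 0.694% and 1.42%, dendritic genes at 24.3% and 24.8% and NK genes at up to 73.3% (in WT CD8+ TILs). In WT CD8+ TDLNs the dendritic, NK and macrophage and monocyte sums were 121%, 179% and 313% of the CD45+ sums. In that group 3 of 9, 2 of 5 and 3 of 10 genes of these lists were over 1 CPM in every library. Which cells these sums came from was not tested. Cxcl12 in WT CD4+ and CD8+ TILs was at 466% and 2168% of the CD45+ mean. How far other cells in the sort account for these T-cell levels was not tested.

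The genotype comparison asked what loss of Yap in T cells changed. In CD4+ TILs, Cxcl1 and Cxcl12 fell, 2 of 7 tested members, where 8.02% of all genes were called and 6.66% were lower. Cxcl1 fell by 3.90 ± 0.75 log2 units (adjusted p = 0.0136), from 18.4 ± 15.5 to 1.11 ± 0.43 CPM (SD, n = 4). It was lower in all 4 Yap-cKO libraries than in any WT library, as were 12.7% of all genes. It was called in each of 8 refits without 1 library (adjusted p = 0.0087 to 0.0438). Cxcl12 fell by 3.90 ± 0.82 (adjusted p = 0.0181), from 7.27 ± 5.35 to 0.447 ± 0.440 CPM. Cxcl12 reached 10 counts in 4 WT and 2 Yap-cKO libraries. It was thus tested through WT, which left little room for any call but a lower one, and the count of 2 of 7 includes it. Without the filter on counts Cxcl12 was at -4.05 (adjusted p = 0.00185). The Cxcl12 call was kept in 5 of 8 such refits (adjusted p = 0.00364 to 0.0577) and was lost without WT replicate 2, Yap-cKO replicate 2 or Yap-cKO replicate 4 (adjusted p = 0.0518, 0.0502 and 0.0577). The remaining 5 members were not called, with differences of 0.95 for Cxcl2 (adjusted p = 0.339), 1.41 for Cxcl3 (0.276), -2.35 for Cxcl9 (0.185), 1.03 for Cxcl10 (0.282) and -0.39 for Cxcl16 (0.641), all adjusted p by edgeR. The median difference over the tested members was -0.39, against 0.14 over all genes. With the level of Y-linked genes as a covariate neither member was called (adjusted p = 0.283 for Cxcl1 and 0.309 for Cxcl12), and the calls over all genes went from 1139 to 2.

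In CD8+ TILs, Cxcl12 fell, 1 of 7 tested members, where 12.2% of all genes were called and 9.14% were lower. Its fall of 6.71 ± 1.27 log2 units (adjusted p = 0.0185) took it from 33.8 ± 51.8 to 0.303 ± 0.160 CPM. It reached 10 counts in 4 WT and 0 Yap-cKO libraries, so that it was tested through WT and could only be called lower. Without the filter on counts it was at -6.71 (adjusted p = 0.00334). WT replicate 2 was at 110.8 CPM, and without it the difference was -4.68 (adjusted p = 0.0320). The call was kept in 7 of 8 refits and lost without Yap-cKO replicate 2 (adjusted p = 0.0546). Cxcl16 was 1.48 ± 0.46 log2 units higher in Yap-cKO with no overlap between the groups, which 7.06% of all genes showed in that direction, and it missed the threshold (adjusted p = 0.0562). Without WT replicate 3 the Cxcl16 difference was 1.92 (adjusted p = 0.0229). Cxcl9 stood at -2.29 ± 0.86 (adjusted p = 0.0940) and Cxcl1 at -1.29 ± 0.67 (adjusted p = 0.200). The differences of Cxcl2, Cxcl3 and Cxcl10 were 0.50, -0.69 and 0.37 (adjusted p = 0.570, 0.511 and 0.309). The median over the tested members was -0.69, against 0.08 over all genes. With the Y-linked covariate Cxcl12 in CD8+ TILs was at -5.78 (adjusted p = 0.135) and the calls over all genes went from 1719 to 1.

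Markers of other cells moved with these genotype differences. The fibroblast and pericyte sum was 484.9, 529.3, 963 and 209.5 CPM in WT CD4+ TILs and 10.2 to 85.8 CPM in Yap-cKO CD4+ TILs. In WT CD8+ TILs it was 232, 1122, 202 and 113 CPM, highest in the replicate that held the most Cxcl12, and 6.36 to 28.5 CPM in Yap-cKO CD8+ TILs. In WT CD4+ TILs the highest sum was in replicate 3 and the highest Cxcl12 in replicate 2. The endothelial sum (10 listed) of WT CD8+ TIL replicate 2 was 1961 CPM, against a mean of 76.3 CPM in Yap-cKO CD8+ TILs. No gene of either list was at 0 throughout a TIL group. The macrophage and monocyte sum moved the other way, from 677 CPM in WT to 1666 CPM in Yap-cKO CD8+ TILs (407.8 to 1019 against 1474 to 1775 CPM), the groups in which Cxcl16 was higher in Yap-cKO. In CD4+ TILs it was 367 and 491 CPM. Which cells this sum came from in CD8+ libraries was not tested. In lymph nodes the macrophage and monocyte sum was 1173 CPM in WT CD8+ TDLNs, against 375 CPM in WT CD45+ TDLNs. In those CD8+ TDLNs 3 of the 10 genes were over 1 CPM in every library, and in both CD8+ TIL groups all 10 were. The part of these cells in the Cxcl1, Cxcl12 and Cxcl16 differences was not tested.

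**Figure D4:**
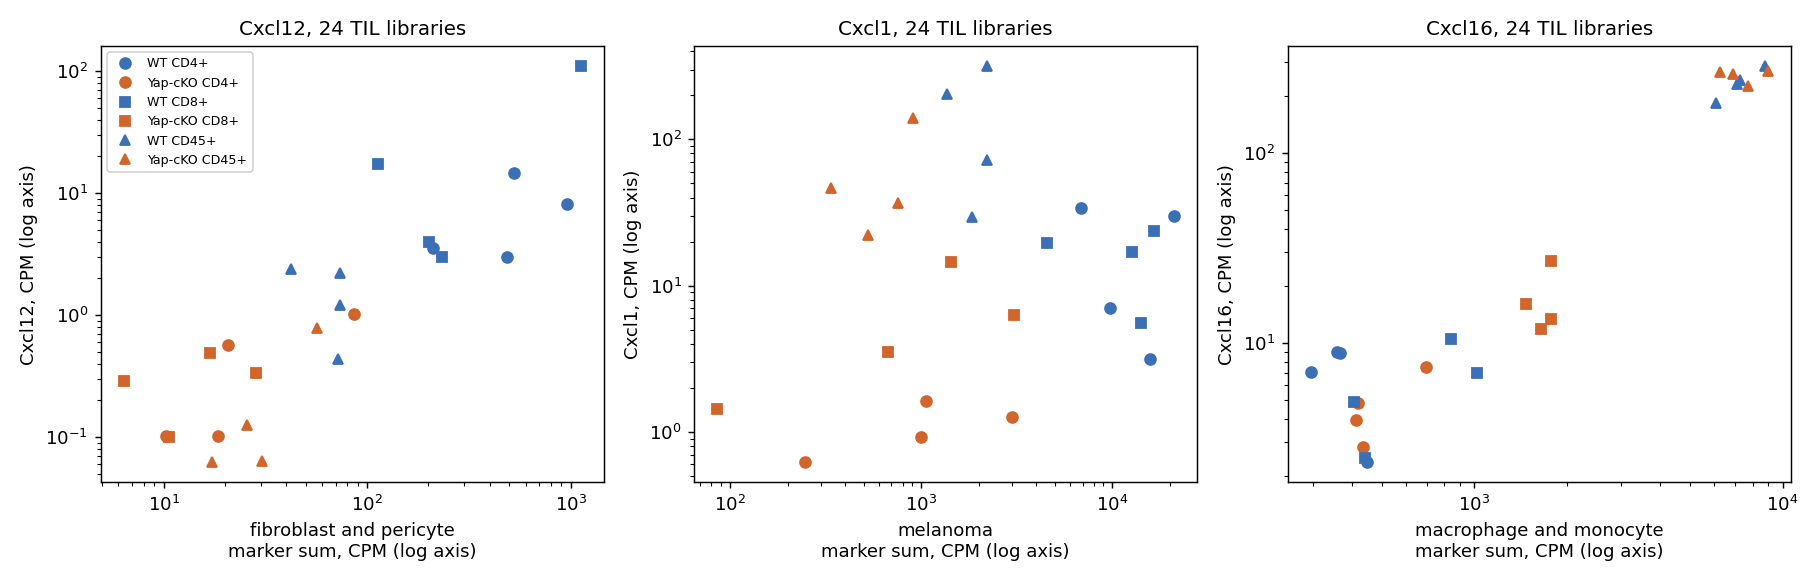
CPM of Cxcl12, Cxcl1 and Cxcl16 against the summed CPM of fibroblast and pericyte, melanoma, and macrophage and monocyte markers in the 24 TIL libraries, all on log axes, with colors for genotype and symbols for population. The WT CD8+ library with 1122 CPM of fibroblast and pericyte markers holds the highest Cxcl12, and in the right panel CD45+ libraries lie above all T-cell libraries on both axes.

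The scaling of the libraries bore on these directions. When libraries were scaled by the T-lineage list (15 genes), the median difference of all genes moved from 0.14 to -1.09 in CD4+ TILs and from 0.08 to -1.08 in CD8+ TILs. The calls over all genes went from 193 higher and 946 lower to 17 higher and 3413 lower in CD4+ TILs, and from 428 higher and 1291 lower to 6 higher and 5568 lower in CD8+ TILs. On that scale Cxcl1 and Cxcl12 were lower in Yap-cKO CD4+ TILs by -5.38 and -5.00 log2 units (adjusted p = 0.00356 and 0.00346), and Cxcl12 in CD8+ TILs by -8.20 (adjusted p = 0.00323). Cxcl2, Cxcl3 and Cxcl10 in CD4+ TILs changed sign to -0.45, -0.05 and -0.02 (adjusted p = 0.689, 0.971 and 0.985), and none was called on either scale. In CD8+ TILs Cxcl2 and Cxcl10 changed sign to -0.43 and -0.89 (adjusted p = 0.550 and 0.159). Cxcl16 in CD8+ TILs kept its sign at 0.59 (adjusted p = 0.358). Calls were gained for Cxcl9 in CD4+ TILs (-4.21, adjusted p = 0.0263) and for Cxcl1 and Cxcl9 in CD8+ TILs (-2.60 and -3.45, adjusted p = 0.0196 and 0.0125).

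In CD45+ TILs edgeR called 0 of 8 tested members (0.991% of all genes were called), DESeq2 called 2, and 2 had an unadjusted p under 0.05. Those were Cxcl14, at -1.46 ± 0.44 log2 units (adjusted p = 0.133 by edgeR and 0.0367 by DESeq2) with all WT libraries above all Yap-cKO libraries, and Cxcl12, at -2.52 ± 0.79 (adjusted p = 0.145 and 0.0373). WT lay above Yap-cKO without overlap for 7.02% of all genes. Cxcl16 differed by 0.09 ± 0.17 (adjusted p = 0.812), the smallest standard error among the 8. Cxcl1 and Cxcl9 stood at -1.38 ± 0.73 and -1.68 ± 0.78 (adjusted p = 0.353 and 0.293).

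In the lymph node edgeR called none of the members. CD4+ cells gave 0 of 3 tested (0.0462% of all genes called) and CD8+ cells 0 of 2 (0.0158%), with none at an unadjusted p under 0.05 and none by DESeq2. CD45+ cells gave 0 of 5 (0.0596%), with 3 at an unadjusted p under 0.05 and 1, Cxcl1, called by DESeq2. Cxcl1 stood at -5.31 ± 1.23 log2 units (adjusted p = 0.999 by edgeR and 0.0120 by DESeq2) with no overlap, as for 0.811% of all genes in that direction. Cxcl1 reached the minimum of counts in 4 WT and 0 Yap-cKO CD45+ TDLN libraries. It was thus tested through WT and could only be called lower. Cxcl2 stood at -2.59 ± 0.92 and Cxcl16 at -1.04 ± 0.34 (both adjusted p = 0.999). Without WT replicate 4, the library with high macrophage and monocyte markers, the Cxcl1 and Cxcl2 differences were -3.38 and -1.22. Cxcl10 differed by -0.05 ± 0.43 (adjusted p = 0.999).

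**Figure D5:**
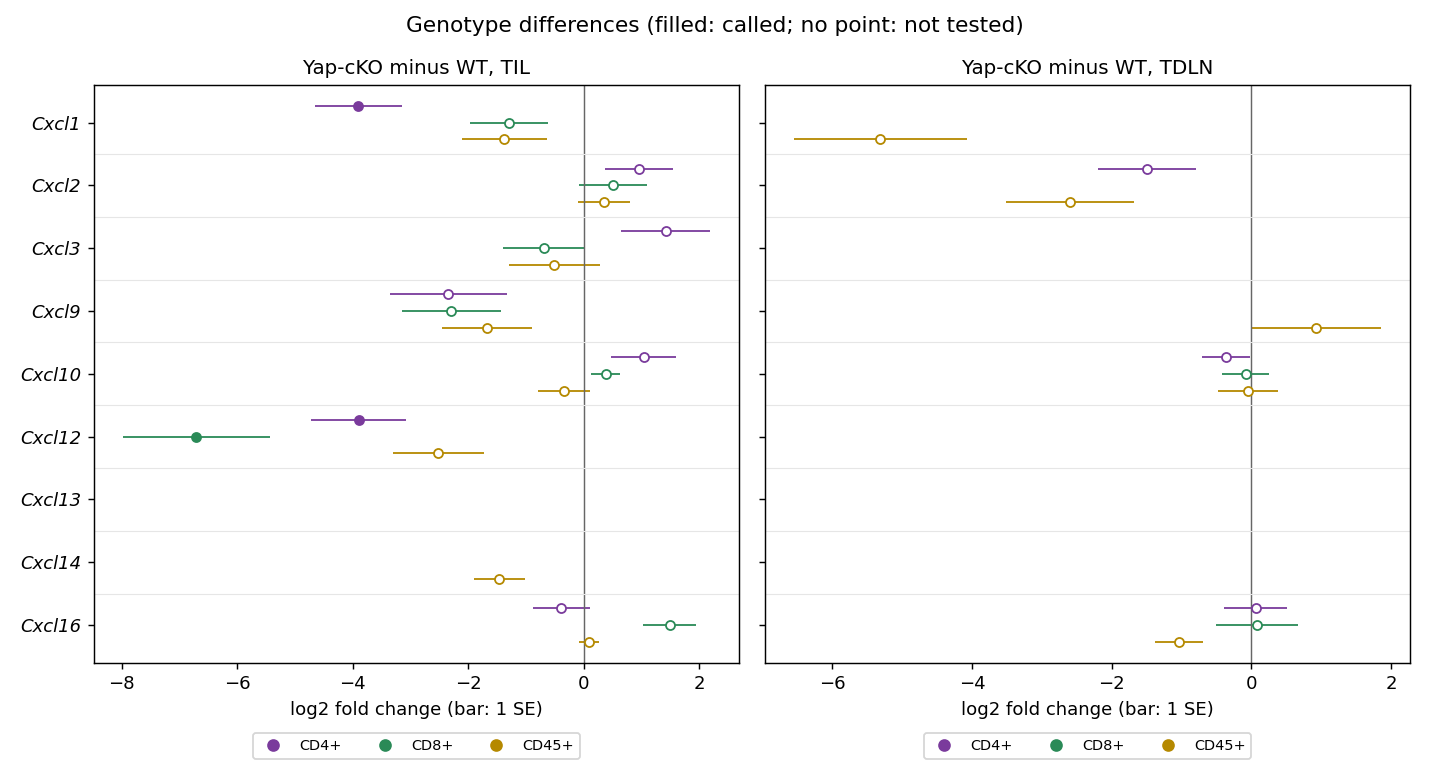
Log2 fold change of Yap-cKO minus WT with 1 SE for each tested member in TILs (left) and TDLNs (right), with colors for population and called members filled. The filled points are Cxcl1 in CD4+ TILs and Cxcl12 in CD4+ and CD8+ TILs, all below 0.

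Whether genotype acted differently in tumor and node was tested as an interaction. Cxcl12 in CD8+ cells was the only member called (1 of 7, where 0.422% of all genes were called), at -8.31 ± 1.70 log2 units (adjusted p = 0.0440). It was tested through WT CD8+ TILs, since 10 counts were reached in 0 Yap-cKO TIL, 0 WT TDLN and 1 Yap-cKO TDLN libraries, and its TDLN values rest on 6 counts in WT and 20 in Yap-cKO. Without the filter on counts it was at -8.24 (adjusted p = 3.98e-04). It was called in 4 of 16 refits without 1 library (adjusted p = 0.0166 to 0.149). Without WT CD8+ TIL replicate 2 it was -6.18 (adjusted p = 0.0767), and the call was also lost without any 1 of the 8 TDLN libraries or without Yap-cKO TIL replicate 1, 2 or 4. Among CD4+ cells edgeR called 0 of 7 (1.36% of all genes) and among CD45+ cells 0 of 8 (0% of all genes), with 2 and 4 at an unadjusted p under 0.05 and 0 by DESeq2 in both. The genotype difference between CD4+ and CD8+ TILs was called for 0 of 7 members (0% of all genes), with 2 at an unadjusted p under 0.05 and 0 by DESeq2. A larger fall of Cxcl1 in CD4+ than in CD8+ TILs was therefore not shown.

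Receptors, other ligands, inducers, signaling genes, transcription factors and ligand proteases formed a list of 44 genes. In CD4+ TILs, 3 of 36 tested were higher in Yap-cKO and 0 lower, where 1.36% of all genes were higher and 6.66% lower. These were Tnfrsf1b, a TNF receptor (721 against 252 CPM, 1.63 log2 units, adjusted p = 0.0490), Nfkb1, an NF-κB subunit (135 against 52.6 CPM, 1.45, adjusted p = 0.0406), and Nfkbia, the NF-κB inhibitor (1179 against 480 CPM, 1.40, adjusted p = 0.0470). In CD8+ TILs, 1 of 34 was higher and 2 lower, where 3.03% of all genes were higher and 9.14% lower. Dpp4, a protease that trims chemokines, rose by 1.84 log2 units (118 against 33.7 CPM, adjusted p = 0.0185). Ackr3, the scavenging receptor for Cxcl12, fell by 5.26 log2 units (0.532 against 21.5 CPM, adjusted p = 0.0185). Its Yap-cKO level was near the minimum of 10 counts, as 3 counts were 0.149 to 0.173 CPM in Yap-cKO CD8+ TILs. Ackr3 was thus tested mainly through WT, which left little room for any call but a lower one. Ltbr, the lymphotoxin receptor of stromal and myeloid cells, fell by 2.82 log2 units (5.45 against 39.3 CPM, adjusted p = 0.0303). With the Y-linked covariate none of these 6 genes was called by edgeR (adjusted p = 0.551, 0.683 and 0.529 for Tnfrsf1b, Nfkb1 and Nfkbia, and 0.135, 0.168 and 0.138 for Dpp4, Ackr3 and Ltbr). The list was not tested with T-lineage scaling, which left far fewer higher calls over all genes in CD4+ and CD8+ TILs. Whether the rises of Tnfrsf1b, Nfkb1, Nfkbia and Dpp4 hold on that scale is therefore not known.

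Receptor levels were set beside their ligands. Cxcr3, the receptor of Cxcl9 and Cxcl10, averaged 231 CPM in WT CD4+ TILs against 465 CPM in Yap-cKO, and 126 CPM in WT CD8+ TILs against 255 CPM, not called (adjusted p = 0.214 and 0.0684). Cxcr6, the receptor of Cxcl16, averaged 188 CPM against 367 CPM in CD4+ TILs and 237 CPM against 525 CPM in CD8+ TILs, not called (adjusted p = 0.233 and 0.116). Cxcr2 averaged 33.5 and 26.3 CPM in CD45+ TILs. Of the inducers, Il1b averaged 4441 and 4269 CPM and Tnf 217 and 283 CPM in CD45+ TILs, and Ifng averaged 71.4 and 69.6 CPM in CD8+ TILs. Between tissues, 16 of 36 tested genes of the list were higher and 4 lower in WT CD45+ TILs (21.9% and 18% of all genes), and 19 of 38 higher and 5 lower in Yap-cKO CD45+ TILs (21.8% and 18.5%). In CD4+ cells 12 of 35 were higher and 9 lower in WT (22.9% and 14.4%), and 8 of 31 higher and 3 lower in Yap-cKO (12.4% and 6.07%). In CD8+ cells 11 of 34 were higher and 12 lower in WT (22.5% and 15.2%), and 9 of 32 higher and 4 lower in Yap-cKO (10.9% and 5.01%). The list was counted after the same filter on counts, which genes can pass through the tumor alone.

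The pattern most like each member's over the 48 libraries was sought among 15346 protein-coding genes by Pearson's r of log2(CPM + 0.5), as a description, since libraries share populations and tissue. Cxcl2 was nearest to Cd14 (r = 0.979), Il1rn (0.973) and Slc11a1 (0.969), and Cxcl16 to Cd300ld (0.968). Cxcl1 was nearest to Timp1 (0.943) and Ppbp (0.941), and Cxcl3 to Adora2b (0.93). Cxcl10 was nearest to Axl (0.923), Cxcl9 to Batf2 (0.92) and Cxcl14 to Fpr1 (0.928). Cxcl12 was nearest to Tnc (0.93), Myh11 (0.92) and Cspg4 (0.915), genes of stroma and mural cells. Cxcl13 was nearest to Bbs2 at 0.661. Between members, Cxcl2 and Cxcl3 had r = 0.911 and Cxcl1 and Cxcl2 0.886, while Cxcl12 had 0.194 with Cxcl2 and 0.0214 with Cxcl16.

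Transcripts of a gene were quantified separately. In the TIL groups, Cxcl2 transcripts 203 and 204, both annotated as retained introns, made up 18.6% to 33.1% and 4.81% to 7.52% of Cxcl2, against 57.6% to 73.6% for the main coding transcript. For Cxcl12, transcript 201 made up 88.5% in WT CD4+ TILs and 93.1% in WT CD8+ TILs. In Yap-cKO it made up 41.9% of 31 counts in CD4+ TILs and 10.2% of 22 counts in CD8+ TILs, too few for a comparison.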

How the data were processed

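Cells were sorted into TRIzol, and libraries were made with SMART-Seq v4, which does not mark strand, and sequenced paired-end. The authors trimmed reads with Trimmomatic and quantified transcripts with Salmon 0.9.1 (mm10). They deposited expected counts and TPM per transcript, which were summed to genes (GENCODE M21; 111787 of 112092 transcripts matched). Expected counts were rounded to whole numbers. CPM used TMM factors over the 48 libraries. Tests used edgeR 4.0.16 quasi-likelihood fits of the compared groups (R 4.3.3; a minimum of 10 counts in 4 libraries; Benjamini-Hochberg adjustment). The SE of a log2 fold change was derived as its absolute value divided by the square root of the F statistic. The scripts were tested on simulated data. DESeq2 1.42.0, no filter, transcript length offsets, a replicate block, other scalings, a Y-linked covariate and refits without 1 library were alternatives.

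The members and lists were chosen with earlier results of these data known. The genes named were the 9 members, list genes called in TILs, and up to 3 genes of the most similar pattern; other list genes named were chosen after their values were seen. The study describes TILs sorted from each tumor, but the labels do not tie libraries to mice, so that p-values measure the spread between these samples, part of which may be technical. None of 72 pairs within groups had identical counts. Replicate numbers were taken to pair libraries where all 4 correlations of deviations were over 0.1, which held in WT TILs alone, where deviations of CD45+ libraries correlated with those of CD4+ (0.484, 0.374, 0.21 and 0.218) and CD8+ libraries (0.55, 0.286, 0.144 and 0.146) of the same number. In 3 other cases (WT CD4+ TILs with TDLNs, and Yap-cKO CD45+ TILs with CD4+ and with CD8+ TILs) 3 of 4 were. Promoters came from RefSeq.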

Additional observations from a re-analysis of the deposited data

Results flagged for a closer look

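In 5 of 56 combinations of a member and a group with a mean of at least 1 CPM (8.93%), 1 of the 4 libraries stood apart from the others by Dixon's criterion, which chance meets in about 1 of 20 groups. Cxcl1 was at 29.33 CPM in WT CD45+ TDLN replicate 4, against 0.599 to 4.60 CPM in the others. Cxcl3 was at 94.89 CPM in that same library, against 0 to 1.07 CPM. Cxcl2 was at 80.08 CPM in Yap-cKO CD4+ TIL replicate 1, against 14.5 to 17.1 CPM. Cxcl10 was at 147.5 CPM in that library, against 18.1 to 39.2 CPM. Cxcl12 was at 110.8 CPM in WT CD8+ TIL replicate 2, against 3.02 to 17.5 CPM. The genotype difference of Cxcl12 in CD8+ cells differed between tumor and node by an interaction of -8.306 log2 units. Its TDLN values rest on 6 counts in WT and 20 counts in Yap-cKO.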

How the results depend on the processing

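Of 1987 member values recomputed under alternatives, 1928 stayed on the same side of the threshold, 39 lost the call, 20 gained one and 0 called values changed sign. Uncalled values that changed sign are counted among the 1928. A further 1 had no adjusted p from DESeq2. In CD4+ TILs, 2 members were called by genotype, 0 with the Y-linked covariate (Cxcl1 at -2.58, adjusted p = 0.283, and Cxcl12 at -3.21, adjusted p = 0.309, by edgeR) and 1 to 2 without 1 library. In CD8+ TILs 1 was called, 3 by DESeq2 (Cxcl16 among them, adjusted p = 0.0105), 2 without the filter, 3 with T-lineage scaling, 0 with the Y-linked covariate and 0 to 2 without 1 library. In CD45+ TILs, 0 became 2 by DESeq2. In CD45+ TDLNs, 0 became 1 by DESeq2 and 2 with the Y-linked covariate (Cxcl1 at -7.36, adjusted p = 6.79e-04, and Cxcl2 at -4.57, adjusted p = 0.00943, by edgeR). Cxcl1 was tested there through WT and could only be called lower. Of CD45+ cells against CD8+ cells alone in Yap-cKO TDLNs, 1 was called. The CD8+ interaction went from 1 to 0 with length offsets (-7.18, adjusted p = 0.0763) and from 0 to 1 without 1 library. The cause was not tested. Over all genes, the genotype calls in CD4+, CD8+ and CD45+ TILs (1139, 1719 and 135) were 2, 1 and 1 with the Y-linked covariate. DESeq2 gave 2128 in CD4+ TILs, 527 in CD45+ TILs, 21 (from 6) in CD4+ TDLNs, 15 (from 2) in CD8+ TDLNs, and 16 (from 8) in CD45+ TDLNs, where the covariate gave 188. For the interactions in CD4+, CD8+ and CD45+ cells (205, 63 and 0) it gave 842, 719 and 119, and for CD4+ against CD8+ TILs 43 (from 0). Without the filter, calls were 1723 in CD4+ TILs, 250 in CD45+ TILs, 21 and 8 in CD4+ and CD8+ TDLNs, and 386, 457 and 2 for the interactions.

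With the replicate block, calls in CD8+ TILs went from 1 to 0 (Cxcl12 at -5.66, adjusted p = 0.0881) and the CD8+ interaction from 1 to 0 (-7.77, adjusted p = 0.122). The block added Cxcl3 in WT CD45+ TILs against TDLNs (6.40, adjusted p = 0.00764). Over all genes the block left 1 call by genotype in each of CD8+ TILs, CD45+ TILs, CD8+ TDLNs and CD45+ TDLNs, and 89 and 0 in the CD4+ and CD8+ interactions. In these comparisons libraries share only a number. Where numbers paired libraries, in WT TILs between populations, the block changed no member's call.

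At this depth, values under 0.133 CPM rest on fewer than 3 counts, and Cxcl13 could not be tested. Genotype was partly confounded with sex, and markers of other cells in the sort moved with it, whose part in the differences was not tested.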
